A study of Mus musculus with 26 samples.

Results

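The 48 mouse genes described here encode proteins that act in G2 and mitosis. They cover the mitotic cyclins with Cdk1 and Foxm1, the mitotic kinases, the chromosomal passenger complex, the spindle checkpoint, the kinetochore, the spindle, the cytokinetic apparatus and chromosome structure. They were taken from a list of symbols that was chosen with earlier results of these data known. Each matched 1 gene identifier among the 55416 identifiers in the aortic count tables and the 55414 in the mesenteric ones. All 48 passed the filter on low counts in each fit. The study sequenced RNA from aortas and mesenteric arteries of male C57BL6J mice to ask how deletion of Sphk1, the gene for sphingosine kinase 1, in smooth muscle alters arteries during angiotensin II (AngII) hypertension. KO AngII mice were Sphk1 flox/flox carrying Cre recombinase under the mouse Tagln (SM22α) promoter and received AngII at 490 ng/kg/min for 14 days from a subcutaneous minipump started at 12 to 14 weeks of age (5 libraries per vessel). WT AngII mice were Sphk1 flox/flox without Cre and had the same infusion (4 libraries per vessel). WT sham mice were Cre-negative Sphk1 flox/flox without AngII, described as normotensive (4 libraries per vessel). The labels state no age for the sham mice. No sham library of the Cre-positive genotype was analysed here, so a genotype effect could be measured under AngII only, and none of the control groups carries the Cre transgene. The Tagln promoter drives Cre in smooth muscle, whereas the libraries hold RNA from whole vessels with every cell type of the wall.

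Cells that prepare for division raise a common set of transcripts late in the cycle. The cyclin B and Cdk1 kinase drives entry into mitosis, the kinetochore and spindle align the chromosomes, the checkpoint delays separation until each chromosome is attached, and the central spindle and contractile ring split the cell. FOXM1 and the MuvB complex act at many of these promoters through a cell cycle homology region (CHR) close to the start site, often with CCAAT boxes bound by NF-Y, and most cells of an adult artery wall are out of the cycle.

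Promoter sequence was examined because these elements are known from a number of G2 and M phase genes. RefSeq windows of mouse build GRCm38.p6, from 250 bases before to 50 bases after the annotated start, were found for 41 of the 48 genes. The CHR was searched as TTTGAA or TTCGAA and the CCAAT box as CCAAT, both on either strand. Matches of the 2 motifs can overlap by at most 1 base. A CHR match was present in 33 of the 41 genes (80.5%), against 5854 of all 27025 genes with a window (21.7%). A CCAAT match was present in 30 of the 41 (73.2%), against 41.1% of all genes, and both motifs stood in 27 of the 41 (65.9%), against 8.61% of all genes. A CHR within the 50 bases before the start was found in 10 of the 41 (24.4%), against 3.25% of all genes. TATAAA, searched on both strands, was rarer in these genes, in 2 of 41 (4.88%), against 15.7% of all genes. These matches describe letters in a window and are not evidence of binding. The 120 bases before the start are printed below for 8 genes whose RNA is followed through the results, chosen to show promoters with and without these motifs near the start. Each is written 5′ to 3′ in the direction of transcription, with CHR and CCAAT matches on either strand in capitals, and Prc1 is shown for the downstream of its 2 RefSeq starts.
Cdk1, chr10:69352913-69353032, minus strand: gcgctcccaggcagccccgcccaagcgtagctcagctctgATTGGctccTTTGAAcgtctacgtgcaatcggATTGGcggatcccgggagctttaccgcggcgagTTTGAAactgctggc
Ccnb1, chr13:100786487-100786606, minus strand: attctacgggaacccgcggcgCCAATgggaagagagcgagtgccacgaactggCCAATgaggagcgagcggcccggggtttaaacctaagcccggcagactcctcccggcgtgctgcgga
Top2a, chr11:99024190-99024309, minus strand: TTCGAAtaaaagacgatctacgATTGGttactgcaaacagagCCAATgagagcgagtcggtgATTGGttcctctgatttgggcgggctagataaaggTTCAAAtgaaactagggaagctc
Ube2c, chr2:164769809-164769928, plus strand: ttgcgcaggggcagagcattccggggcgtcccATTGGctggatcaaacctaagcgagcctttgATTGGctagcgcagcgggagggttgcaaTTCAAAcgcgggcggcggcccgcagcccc
Prc1, chr7:80294356-80294475, plus strand: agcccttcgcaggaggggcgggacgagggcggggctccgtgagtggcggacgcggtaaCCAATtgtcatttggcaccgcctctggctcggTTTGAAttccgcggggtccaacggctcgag
Iqgap3, chr3:88081931-88082050, plus strand: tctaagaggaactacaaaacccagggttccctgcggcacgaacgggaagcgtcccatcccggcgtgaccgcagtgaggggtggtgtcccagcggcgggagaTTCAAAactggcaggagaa
Hmmr, chr11:40733438-40733557, minus strand: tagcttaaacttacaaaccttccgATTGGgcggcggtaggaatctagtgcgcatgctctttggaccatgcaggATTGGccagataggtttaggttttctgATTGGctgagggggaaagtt
Anln, chr9:22389207-22389326, minus strand: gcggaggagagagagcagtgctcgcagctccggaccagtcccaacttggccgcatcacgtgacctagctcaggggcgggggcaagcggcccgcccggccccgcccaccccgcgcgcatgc
Cdk1 and Top2a each had a CHR close to the start, with its first base 15 and 23 bases before it, and a CHR farther out. Ube2c, Prc1 and Iqgap3 had 1 CHR each in these 120 bases, whose first bases lay 29, 30 and 19 bases before the start. Ccnb1 and Hmmr showed CCAAT boxes without a CHR in the printed stretch. Anln held neither motif there. Over their whole 300-base windows Anln had 2 CHR matches and Hmmr had 1, outside the printed bases, and both count among the 33 genes above.

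Counts assigned to genes came to between 23487946 and 32251097 per aortic library and between 17540532 and 30050073 per mesenteric library. Sphk1 was at 1.71 to 3.29 CPM (counts scaled to library size, with TMM factors) in KO AngII aortas, 11.5 to 24.2 CPM in WT AngII aortas and 3.04 to 6.03 CPM in WT sham aortas. In mesenteric arteries Sphk1 was at 2.89 to 4.94 CPM in KO AngII, 9.84 to 17.8 CPM in WT AngII and 7.43 to 9.42 CPM in WT sham. The smooth muscle, fibroblast and endothelial marker genes were present in every library of both vessels. The mesenteric libraries KO AngII 3 and WT AngII 1 stood apart in lymphoid RNA: their 18 B and T lymphocyte markers summed to 1079 and 262 CPM, against 14.3 to 139 CPM in the remaining 11. KO AngII 1 and 5 are among these 11, and their sums of 127 to 139 CPM also lay above the at most 29.3 CPM of WT sham. KO AngII 3 and WT AngII 1 enter every result below, and counts of calls without these 2 are given beside the mesenteric results. The 12 gut epithelium and pancreas markers also varied widely between mesenteric libraries of every group, summing to 153.5 to 50780 CPM in KO AngII, 18.65 to 74930 CPM in WT AngII and 47.35 to 31270 CPM in WT sham. Reads that were not aligned made up 11.4% to 14.7% in mesenteric KO AngII 2, 3 and 4 and 12.0% in WT AngII 1, against at most 2.52% in the other mesenteric libraries, so no sham library was among those with a high share. The labels do not say that same-numbered libraries came from the same mouse, so p-values measure the spread between libraries of a group.

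AngII raised nearly the whole mitotic set in the aorta, and in mesenteric arteries a share of it that depended on the tool and its settings. For mesenteric arteries edgeR called 21 of the 48 genes, DESeq2 40 and limma voom 41. The edgeR count was 10 with scaling by library size alone and 7 with the replicate number added as a block. A gene is called here when its adjusted p in edgeR's quasi-likelihood test, with Benjamini-Hochberg adjustment over all genes of the vessel, is below 0.05, and fold changes are on the log2 scale with their standard errors. In WT AngII aortas, set against WT sham aortas, 46 of the 48 genes rose and 0 fell, whereas 14.7% of all 16863 aortic genes rose and 10.8% fell. The median change of the 48 was 2.17, against -0.00052 over all genes, and the range ran from 0.24 for Anln to 3.03 for Iqgap3. Scaling by library size alone, which moved the median of all genes to -0.126, gave 1747 higher and 3729 lower genes in place of 2475 and 1826, and 46 of the 48 still rose. In WT AngII mesenteric arteries, set against WT sham mesenteric arteries, 21 of the 48 rose and 0 fell, whereas 0.183% of all 17513 genes rose and 0% fell. The mesenteric median was 1.75, with a range of 0.15 for Cenpa to 2.64 for Hmmr. All 48 estimates were positive in each vessel, and 45 of the 48 mesenteric ones had an unadjusted p below 0.05, against 10.6% of all mesenteric genes.

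The WT AngII and WT sham libraries were fully separated for most of the set in both vessels. Every WT AngII aorta exceeded every WT sham aorta for 45 of 48 genes, against 12.2% of all genes, and the exceptions were Anln, Sgo2a and Cdc20. Every WT AngII mesenteric library exceeded every WT sham mesenteric library for 45 of 48 genes as well, against 4.53% of all genes, and the exceptions were Bub1b, Cenpa and Ncaph. Over the whole mesenteric transcriptome, edgeR called 32 genes higher, and 21 of these 32 (65.6%) were in the mitotic set. The set was chosen with earlier results of these data known, so such shares describe it and are not independent evidence. DESeq2 called 238 genes higher, 40 of them in the set, and limma voom 197, 41 of them in the set, so both the total and the share depend on the tool. Of the 32 genes from edgeR, another 4, Cep55, Nek2, Spc25 and Spag5, are mitotic genes outside the set, and the remaining 7 were Col12a1, Ltbp2, Uhrf1bp1l, Postn, Lrp8, Igfbp2 and Dio2. All 21 mesenteric calls were also called in the aorta, where they made up 21 of 46. Common dispersion, the variance between libraries beyond counting error, was 0.127 in the mesenteric fit and 0.0286 in the aortic fit.

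The mesenteric count depended on single libraries, while the aortic count did not. All 46 aortic calls held when any of the 13 aortic libraries was left out. Only 5 of the 21 mesenteric calls, Pbk, Ckap2l, Prc1, Kif20a and Iqgap3, held in every such fit. The count was 36 without KO AngII 3 and 6, 7, 7 and 8 without WT sham 1, 2, 3 or 4. Leaving out WT AngII 1, 2, 3 or 4 gave 9, 8, 8 and 11. Without KO AngII 3 these 15 genes also passed, with adjusted p of 0.000286 to 0.0487: Plk1, Aurka, Bub1, Ttk, Cenpe, Knl1, Ndc80, Kif11, Kif15, Nusap1, Kif23, Racgap1, Anln, Mki67 and Ncapg. Without WT AngII 1, 12 calls were lost: Cdk1, Ccnb1, Ccnb2, Ccna2, Foxm1, Cdca8, Nuf2, Kif2c, Kif4, Tpx2, Aspm and Top2a. Without both, 24 genes passed, the 21 with Kif11, Racgap1 and Mki67 added. Without the 4 libraries of high unaligned share, 22 passed. KO AngII 3 is in neither group of this comparison and enters only through the fit shared by the 3 groups. With only WT AngII and WT sham fitted, 30 of the 48 and 72 of all genes rose. No member changed direction in any of these mesenteric fits. These are bulk libraries, so more cells in the cycle and more mitotic RNA per cycling cell cannot be told apart.

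**Figure D1:**
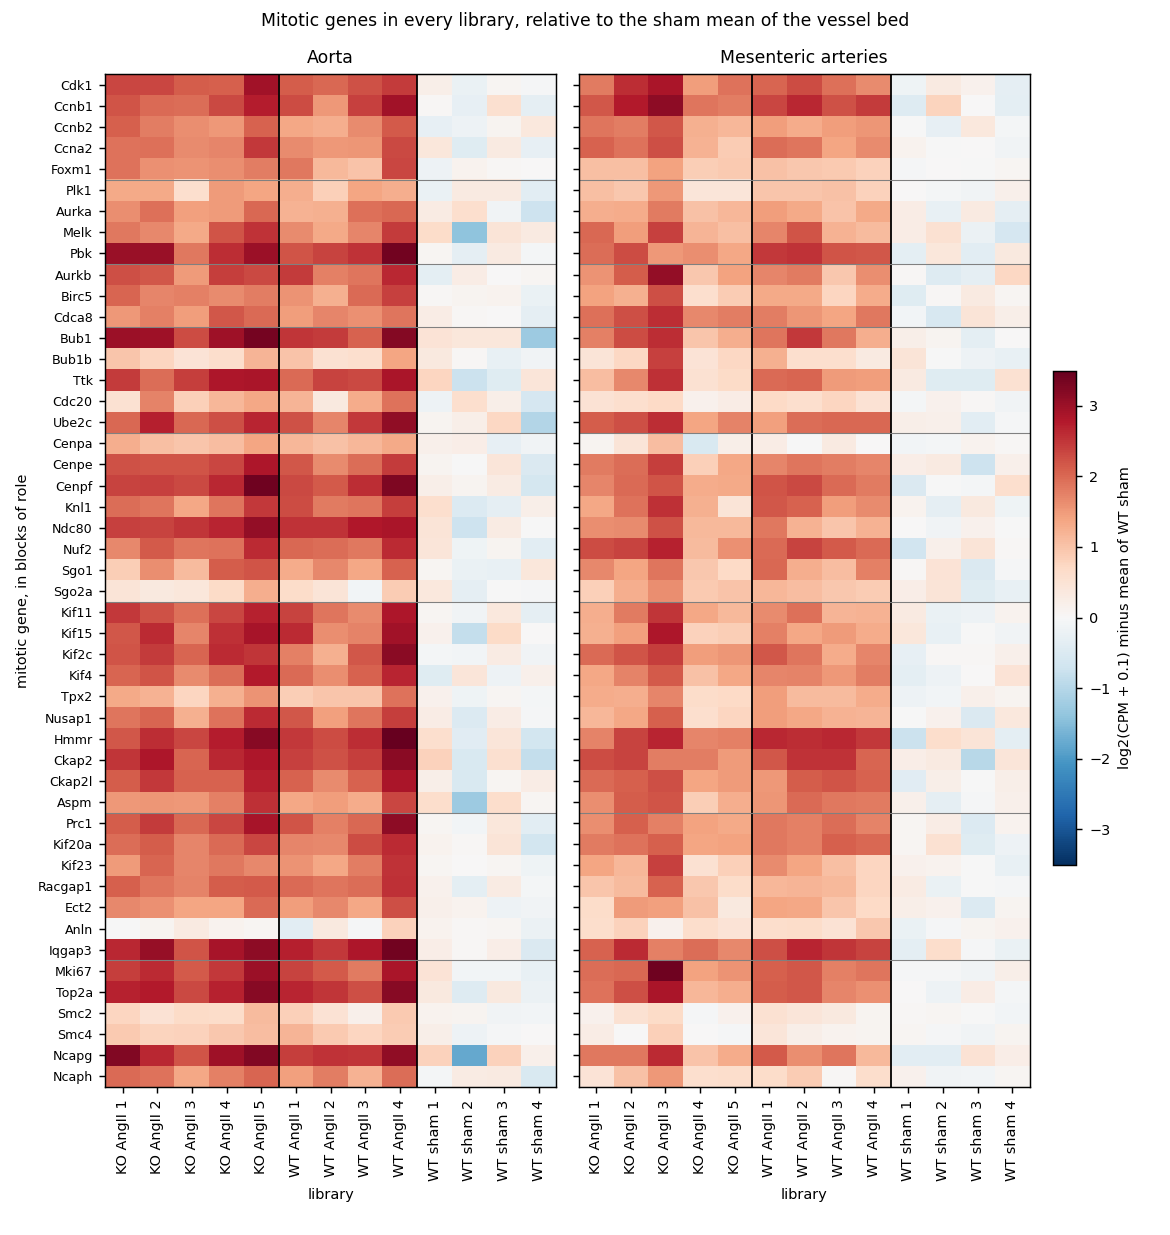
Heatmap of the 48 mitotic genes (rows, grouped by role) in the 13 mesenteric and 13 aortic libraries (columns, in the order KO AngII, WT AngII, WT sham), coloured by log2(CPM + 0.1) minus the WT sham mean of the same vessel. Most rows lie above the sham mean in both AngII groups of each vessel, and mesenteric KO AngII 3 is the highest of the 13 mesenteric libraries for 39 of the 48 genes.

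Mitotic genes also stood higher in KO AngII than in WT sham vessels. With no Sphk1-deleted sham library analysed, this comparison differs in genotype, Cre and AngII together, and their parts cannot be told apart. It uses the same WT sham libraries as the WT AngII comparison, so the 2 comparisons are not independent of each other. In KO AngII aortas 47 of 48 genes rose and 0 fell relative to WT sham, whereas 16.6% of all aortic genes rose and 14.2% fell. The median change was 2.10 and the range 0.12 to 3.18. In KO AngII mesenteric arteries 28 of 48 rose and 0 fell, whereas 0.457% of all mesenteric genes rose and 0.251% fell. The median there was 1.77 and the range 0.26 for Smc4 to 2.53 for Ccnb1. All 28 were also called in KO AngII aortas (28 of 47). Of the 28 mesenteric calls, 10 held whichever library was left out: Cdk1, Foxm1, Pbk, Cdca8, Ube2c, Kif2c, Ckap2l, Prc1, Kif20a and Iqgap3. Leaving out WT sham 2, 3 or 4 gave 13, 15 and 12 calls. Without the 4 libraries of high unaligned share, 25 passed. Without KO AngII 3, Racgap1 and Anln passed as well, and without WT AngII 1 the calls of Bub1, Cenpe and Ncapg were lost. By role, the KO AngII mesenteric calls were 5 of 5 for the cyclins, Cdk1 and Foxm1, 2 of 4 kinases, 1 of 3 passenger genes, 2 of 5 checkpoint genes, 4 of 8 kinetochore genes, 8 of 10 spindle genes, 3 of 7 cytokinesis genes and 3 of 6 chromosome structure genes. Mki67 changed by 2.29 ± 0.37 in KO AngII (edgeR adjusted p = 0.0198) beside 2.00 ± 0.38 in WT AngII, and Ndc80 by 1.73 ± 0.29 in KO AngII (edgeR adjusted p = 0.0198) beside 1.46 ± 0.29 in WT AngII, both over WT sham. Cdk1 changed by 2.32 ± 0.31 in KO AngII mesenteric arteries (edgeR adjusted p = 0.00767) and by 2.50 ± 0.21 in KO AngII aortas (edgeR adjusted p = 2.96e-06), the smallest aortic p of the 48.

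**Figure D2:**
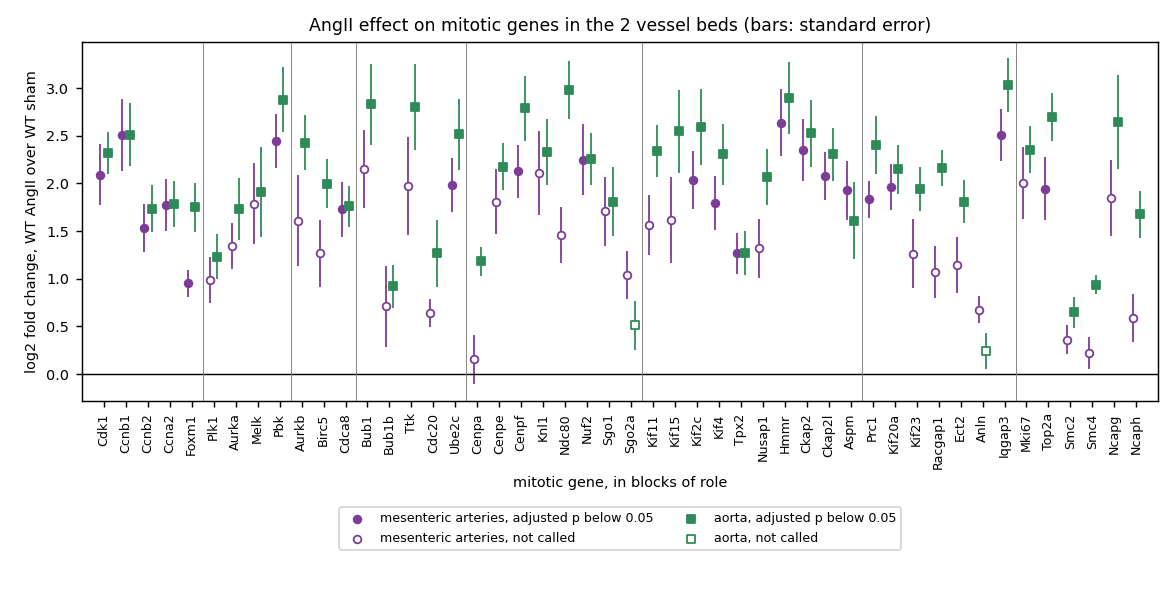
Log2 fold change of WT AngII over WT sham for each of the 48 genes, with its standard error, in mesenteric arteries (circles, left) and aortas (squares, right); filled symbols are called at an adjusted p below 0.05. All 48 estimates lie above 0 in both vessels, with 21 filled in mesenteric arteries and 46 filled in aortas.

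The genes that start mitosis rose in both vessels. Cdk1, its partners Ccnb1, Ccnb2 and Ccna2, and Foxm1, the transcription factor that acts on many late cell cycle promoters, made 5 of 5 calls in the WT AngII comparison of each vessel. Cdk1 (ENSMUSG00000019942), the kinase that drives mitotic entry, was at 3.19, 5.58, 6.68, 2.48 and 3.4 CPM in KO AngII, 3.73, 4.48, 3.51 and 2.85 CPM in WT AngII and 0.744, 1.07, 0.944 and 0.659 CPM in WT sham mesenteric libraries, here and below in order of replicate number. The aortic libraries held Cdk1 at 4.67, 4.65, 3.98, 3.91 and 7.14 CPM in KO AngII, 4, 3.71, 4.37 and 5.1 CPM in WT AngII and 0.99, 0.7, 0.902 and 0.822 CPM in WT sham. No AngII library of either genotype overlapped the sham libraries in either vessel. The log2 change of Cdk1 in WT AngII over WT sham was 2.09 ± 0.32 in mesenteric arteries (edgeR adjusted p = 0.0217) and 2.32 ± 0.22 in aortas (edgeR adjusted p = 7.92e-06).

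Ccnb1 (ENSMUSG00000041431), the cyclin whose destruction ends mitosis, was at 2.89, 4.43, 5.7, 2.35 and 2.19 CPM in KO AngII, 3.28, 4, 2.99 and 3.52 CPM in WT AngII and 0.39, 1.03, 0.567 and 0.427 CPM in WT sham mesenteric libraries. Its aortic values were 2.72, 2.31, 2.26, 2.93 and 3.99 CPM in KO AngII, 2.85, 1.65, 3.11 and 4.54 CPM in WT AngII and 0.524, 0.405, 0.794 and 0.393 CPM in WT sham. Every AngII library of both genotypes stood above every sham library of its vessel. The change in WT AngII over WT sham was 2.51 ± 0.38 in mesenteric arteries (edgeR adjusted p = 0.0206) and 2.51 ± 0.33 in aortas (edgeR adjusted p = 8.96e-05). Ccnb2 rose by 1.53 in WT AngII mesenteric arteries and by 1.74 in WT AngII aortas. Ccna2, the S and G2 phase cyclin, rose by 1.77 in mesenteric arteries and by 1.78 in aortas.

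Foxm1 (ENSMUSG00000001517) was at 4.94, 4.87, 6.26, 4.3 and 4.47 CPM in KO AngII, 4.79, 4.58, 4.47 and 4.1 CPM in WT AngII and 2.23, 2.32, 2.27 and 2.44 CPM in WT sham mesenteric libraries. Aortic Foxm1 was at 6.61, 5.34, 5.31, 5.48 and 6.22 CPM in KO AngII, 6.44, 3.9, 3.54 and 9.12 CPM in WT AngII and 1.49, 1.88, 1.77 and 1.72 CPM in WT sham. The mesenteric sham libraries lay between 2.23 and 2.44 CPM, and the groups were separated in both vessels. Foxm1 rose by 0.95 ± 0.14 in WT AngII mesenteric arteries (edgeR adjusted p = 0.0206) and by 1.75 ± 0.26 in WT AngII aortas (edgeR adjusted p = 0.000206). The mesenteric calls of Cdk1, Ccnb1 and Foxm1 did not hold in every fit with 1 library left out, where their highest adjusted p was 0.12, 0.115 and 0.102.

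The 4 mitotic kinases, Plk1, Aurka, Melk and Pbk, all rose in WT AngII aortas, and Pbk rose in WT AngII mesenteric arteries. Pbk (ENSMUSG00000022033), a kinase found in dividing cells, was at 3.02, 3.83, 2.21, 2.38 and 1.98 CPM in KO AngII, 4.4, 4.55, 3.63 and 3.52 CPM in WT AngII and 0.531, 0.952, 0.519 and 0.931 CPM in WT sham mesenteric libraries. Aortic Pbk was at 5.01, 4.96, 2.17, 3.65 and 4.91 CPM in KO AngII, 2.78, 3.16, 3.51 and 6.44 CPM in WT AngII and 0.553, 0.405, 0.686 and 0.5 CPM in WT sham. AngII and sham libraries did not overlap in either vessel, and the change in WT AngII over WT sham was 2.44 ± 0.28 in mesenteric arteries (edgeR adjusted p = 0.00595) and 2.88 ± 0.34 in aortas (edgeR adjusted p = 4.4e-05). The mesenteric call of Pbk held at an adjusted p of at most 0.0405 with any library left out.

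Plk1 (ENSMUSG00000030867), which matures the centrosomes and opens mitosis, was at 3.23, 2.98, 4.51, 2.05 and 2.06 CPM in KO AngII, 3.01, 3.04, 3.15 and 2.72 CPM in WT AngII and 1.52, 1.41, 1.37 and 1.71 CPM in WT sham mesenteric libraries. Its aortic values were 3.59, 3.63, 2.14, 4.04 and 3.76 CPM in KO AngII, 3.46, 2.57, 3.76 and 3.48 CPM in WT AngII and 1.17, 1.73, 1.73 and 1.04 CPM in WT sham. The AngII libraries were above the sham libraries in both vessels, yet the mesenteric change of 0.98 ± 0.24 did not pass the test over all genes (edgeR adjusted p = 0.167), while the aortic one of 1.23 ± 0.23 did (edgeR adjusted p = 0.00155). Aurka, the centrosome and spindle kinase, changed by 1.34 in mesenteric arteries (edgeR adjusted p = 0.0569) and rose by 1.73 in aortas. Melk had estimates of 1.79 in mesenteric arteries (edgeR adjusted p = 0.146) and 1.91 in aortas (edgeR adjusted p = 0.00856).

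The chromosomal passenger complex, which corrects faulty attachments and later marks the cleavage site, was represented by Aurkb, Birc5 and Cdca8. All 3 rose in WT AngII aortas, and Cdca8, which encodes borealin, rose in WT AngII mesenteric arteries by 1.73 ± 0.29 (edgeR adjusted p = 0.0337) beside 1.76 in aortas. Aurkb (ENSMUSG00000020897), the catalytic subunit, was at 2.04, 3.01, 5.96, 1.28 and 1.8 CPM in KO AngII, 2.23, 2.43, 1.28 and 2.09 CPM in WT AngII and 0.638, 0.419, 0.472 and 1.09 CPM in WT sham mesenteric libraries. In the aorta Aurkb was at 2.77, 2.65, 1.59, 3.13 and 2.88 CPM in KO AngII, 3.22, 1.95, 2.13 and 3.7 CPM in WT AngII and 0.379, 0.626, 0.505 and 0.536 CPM in WT sham. No AngII library overlapped the sham libraries of its vessel for Aurkb, and mesenteric KO AngII 3 was the highest. Birc5 (ENSMUSG00000017716), or survivin, was at 2.64, 2.34, 4.85, 1.44 and 1.8 CPM in KO AngII, 2.5, 2.5, 1.63 and 2.45 CPM in WT AngII and 0.673, 0.952, 1.18 and 0.97 CPM in WT sham mesenteric libraries. Aortic libraries had Birc5 at 2.98, 2.35, 2.46, 2.28 and 2.49 CPM in KO AngII, 2.14, 1.69, 2.86 and 3.87 CPM in WT AngII and 0.67, 0.7, 0.722 and 0.536 CPM in WT sham. Birc5 was separated in the same way. In WT AngII mesenteric arteries the changes of Aurkb and Birc5 were 1.61 ± 0.48 (edgeR adjusted p = 0.252) and 1.26 ± 0.35 (edgeR adjusted p = 0.219), short of the threshold. The aortic changes were 2.43 ± 0.29 (edgeR adjusted p = 4.59e-05) and 2.00 ± 0.25 (edgeR adjusted p = 7.08e-05).

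Checkpoint genes and the ubiquitin ligase that they restrain rose in aortas, 5 of 5, and 1 of 5 rose in WT AngII mesenteric arteries. That gene was Ube2c, which encodes the ubiquitin-conjugating enzyme of the anaphase promoting complex and was at 3.62, 4.02, 5.02, 2.12 and 2.75 CPM in KO AngII, 2.23, 3.25, 3.35 and 3.34 CPM in WT AngII and 0.886, 0.876, 0.567 and 0.737 CPM in WT sham mesenteric libraries. Its change in WT AngII was 1.98 ± 0.28 in mesenteric arteries (edgeR adjusted p = 0.0154) and 2.51 in aortas, without overlap of the groups. The checkpoint kinases Bub1 and Ttk rose by 2.83 and 2.80 in WT AngII aortas, and their mesenteric estimates were 2.15 (edgeR adjusted p = 0.0674) and 1.97 (edgeR adjusted p = 0.191).

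Bub1b and Cdc20 had the smallest estimates of these 5 genes in both vessels. Bub1b (ENSMUSG00000040084), which encodes the checkpoint protein BubR1, was at 4.6, 5.58, 18, 4.7 and 5.63 CPM in KO AngII, 8.02, 5.13, 5.1 and 4.23 CPM in WT AngII and 4.64, 3.35, 2.93 and 2.79 CPM in WT sham mesenteric libraries. Mesenteric KO AngII 3 was the highest at 18 CPM, and the WT AngII and sham groups overlapped, with a change of 0.71 ± 0.43 (edgeR adjusted p = 0.577). Aortic Bub1b was at 5.1, 4.39, 3.62, 3.94 and 5.91 CPM in KO AngII, 5.16, 3.71, 3.87 and 6.86 CPM in WT AngII and 3.26, 2.62, 2.13 and 2.32 CPM in WT sham, a rise of 0.92 ± 0.22 in WT AngII (edgeR adjusted p = 0.00759). Cdc20 (ENSMUSG00000006398), the activator of the anaphase promoting complex, was at 5.75, 6.1, 6.68, 4.5 and 4.86 CPM in KO AngII, 6.57, 6.15, 6.82 and 5.79 CPM in WT AngII and 3.83, 4.53, 4.15 and 3.72 CPM in WT sham mesenteric libraries. The WT AngII libraries were above the sham libraries, while KO AngII 4 lay just below WT sham 2. The change of 0.64 ± 0.15 in WT AngII did not pass the test (edgeR adjusted p = 0.132). In aortas Cdc20 was at 2.55, 5.98, 3.17, 4.04 and 4.61 CPM in KO AngII, 4.1, 2.21, 4.41 and 6.79 CPM in WT AngII and 1.51, 2.65, 2.02 and 1.11 CPM in WT sham, and here WT AngII 2 and KO AngII 1 lay below WT sham 2. Its aortic rise was 1.27 ± 0.35 (edgeR adjusted p = 0.0158), a call that limma voom with quality weights did not make (0.66, adjusted p = 0.187).

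Of the 8 centromere and kinetochore genes, 7 rose in WT AngII aortas and 2, Cenpf and Nuf2, rose in WT AngII mesenteric arteries. Cenpf (ENSMUSG00000026605), a large protein of the outer kinetochore, was at 3.75, 4.58, 5.32, 2.82 and 2.88 CPM in KO AngII, 5.34, 5.74, 4.59 and 4.1 CPM in WT AngII and 0.744, 1.07, 1.04 and 1.67 CPM in WT sham mesenteric libraries. Aortic Cenpf was at 3.2, 3.29, 3.11, 3.88 and 6.64 CPM in KO AngII, 3.09, 2.72, 3.76 and 6.02 CPM in WT AngII and 0.641, 0.589, 0.686 and 0.322 CPM in WT sham. The groups were separated, with changes in WT AngII of 2.13 ± 0.28 in mesenteric arteries (edgeR adjusted p = 0.0114) and 2.79 ± 0.34 in aortas (edgeR adjusted p = 5.48e-05). Nuf2, a subunit of the NDC80 complex that grips microtubules, rose by 2.25 in mesenteric arteries and 2.26 in aortas.

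Ndc80 (ENSMUSG00000024056), the partner of Nuf2 in that complex, was at 2.3, 2.31, 3.49, 1.58 and 1.59 CPM in KO AngII, 2.67, 1.71, 1.4 and 1.69 CPM in WT AngII and 0.673, 0.609, 0.755 and 0.659 CPM in WT sham mesenteric libraries. Its aortic values were 1.73, 1.7, 1.88, 2.12 and 2.84 CPM in KO AngII, 1.93, 1.91, 2.35 and 2.43 CPM in WT AngII and 0.379, 0.111, 0.325 and 0.25 CPM in WT sham. All AngII libraries exceeded the sham libraries in both vessels, and the estimates for WT AngII were 1.46 ± 0.29 in mesenteric arteries (edgeR adjusted p = 0.0853) and 2.98 ± 0.30 in aortas (edgeR adjusted p = 1.37e-05). Cenpa, the histone H3 variant of centromeres, was at 7.49, 9.6, 15, 4.84 and 8.08 CPM in KO AngII, 8.46, 7.01, 8.77 and 7.04 CPM in WT AngII and 6.55, 6.63, 7.7 and 7.25 CPM in WT sham mesenteric libraries. The WT AngII and sham groups overlapped there, and the change was 0.15 ± 0.26 (edgeR adjusted p = 0.868). Aortic Cenpa was at 6.23, 5.34, 4.95, 5.41 and 6.68 CPM in KO AngII, 5.73, 5.22, 5.68 and 6.37 CPM in WT AngII and 2.85, 2.95, 2.02 and 2.29 CPM in WT sham, a rise of 1.18 ± 0.15 in WT AngII (edgeR adjusted p = 8.67e-05).

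Sgo2a, a shugoshin that protects centromeric cohesion, was at 3.16, 2.91, 3.01, 3.65 and 5.64 CPM in KO AngII, 3.56, 3.16, 2.13 and 4.29 CPM in WT AngII and 2.94, 1.8, 2.24 and 2.22 CPM in WT sham aortas. The groups overlapped, and the change was 0.51 ± 0.25 in WT AngII (edgeR adjusted p = 0.159) and 0.67 ± 0.24 in KO AngII (edgeR adjusted p = 0.0482), both over WT sham. The KO AngII call of Sgo2a was lost without KO AngII 1, 4 or 5, WT AngII 1 or 2, or WT sham 2, 3 or 4, with adjusted p up to 0.142. That of Cdc20 was lost without WT sham 1 or 4 (adjusted p up to 0.0526). Mesenteric Sgo2a was at 1.92, 2.64, 3.41, 2.05 and 2.19 CPM in KO AngII, 2.45, 2.29, 2.11 and 2 CPM in WT AngII and 1.24, 1.45, 0.755 and 0.853 CPM in WT sham, with no overlap of AngII and sham, and an estimate of 1.04 in WT AngII (edgeR adjusted p = 0.159). Cenpe, a kinetochore motor, Knl1, the scaffold of the outer kinetochore, and Sgo1 rose by 2.17, 2.33 and 1.81 in WT AngII aortas, and their mesenteric estimates were 1.81, 2.11 and 1.71, with edgeR adjusted p of 0.0643, 0.0986 and 0.108.

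The 10 spindle motors and microtubule-binding proteins had the most mesenteric calls of any role. All 10 rose in WT AngII aortas, with a median of 2.32, and 7 rose in WT AngII mesenteric arteries: Kif2c, Kif4, Tpx2, Hmmr, Ckap2, Ckap2l and Aspm. Hmmr (ENSMUSG00000020330), the hyaluronan-mediated motility receptor that binds spindle microtubules, was at 2.43, 3.83, 4.77, 2.38 and 2.49 CPM in KO AngII, 4.68, 4.44, 4.66 and 4.1 CPM in WT AngII and 0.354, 1.07, 0.944 and 0.504 CPM in WT sham mesenteric libraries. In aortas Hmmr was at 2.9, 3.9, 3.23, 4.34 and 5.87 CPM in KO AngII, 3.56, 3.09, 3.83 and 7.92 CPM in WT AngII and 0.903, 0.405, 0.794 and 0.322 CPM in WT sham. AngII and sham groups were separated in both vessels, with changes in WT AngII of 2.64 ± 0.35 in mesenteric arteries (edgeR adjusted p = 0.0114) and 2.90 ± 0.38 in aortas (edgeR adjusted p = 9.86e-05). The mesenteric estimate of Hmmr was the largest of the 48, and its adjusted p reached 0.0545 with 1 library left out.

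Kif11 (ENSMUSG00000012443), the bipolar kinesin that pushes spindle poles apart, was at 4.17, 6.18, 10, 4.43 and 3.82 CPM in KO AngII, 5.51, 6.6, 3.91 and 4.05 CPM in WT AngII and 2.09, 1.41, 1.46 and 1.82 CPM in WT sham mesenteric libraries. Its aortic levels were 6.1, 5.07, 4.14, 5.51 and 7.06 CPM in KO AngII, 5.63, 3.93, 3.4 and 7.78 CPM in WT AngII and 1.05, 0.921, 1.34 and 0.786 CPM in WT sham. Sham libraries of both vessels were below all AngII libraries, and the changes in WT AngII were 1.56 ± 0.31 in mesenteric arteries (edgeR adjusted p = 0.0853) and 2.34 ± 0.27 in aortas (edgeR adjusted p = 3.98e-05). Ckap2l and Ckap2, cytoskeleton-associated proteins of the spindle, rose by 2.08 and 2.35 in WT AngII mesenteric arteries and by 2.30 and 2.53 in WT AngII aortas. Kif2c, a microtubule depolymerase, Kif4, a chromosome-bound kinesin, Tpx2, an activator of Aurora A, and Aspm, a spindle pole protein, rose in the same mesenteric comparison by 2.03, 1.79, 1.26 and 1.93. The estimates of Kif15 and Nusap1 were 1.62 and 1.32 in mesenteric arteries (edgeR adjusted p = 0.219 and 0.144), against rises of 2.55 and 2.06 in aortas.

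**Figure D3:**
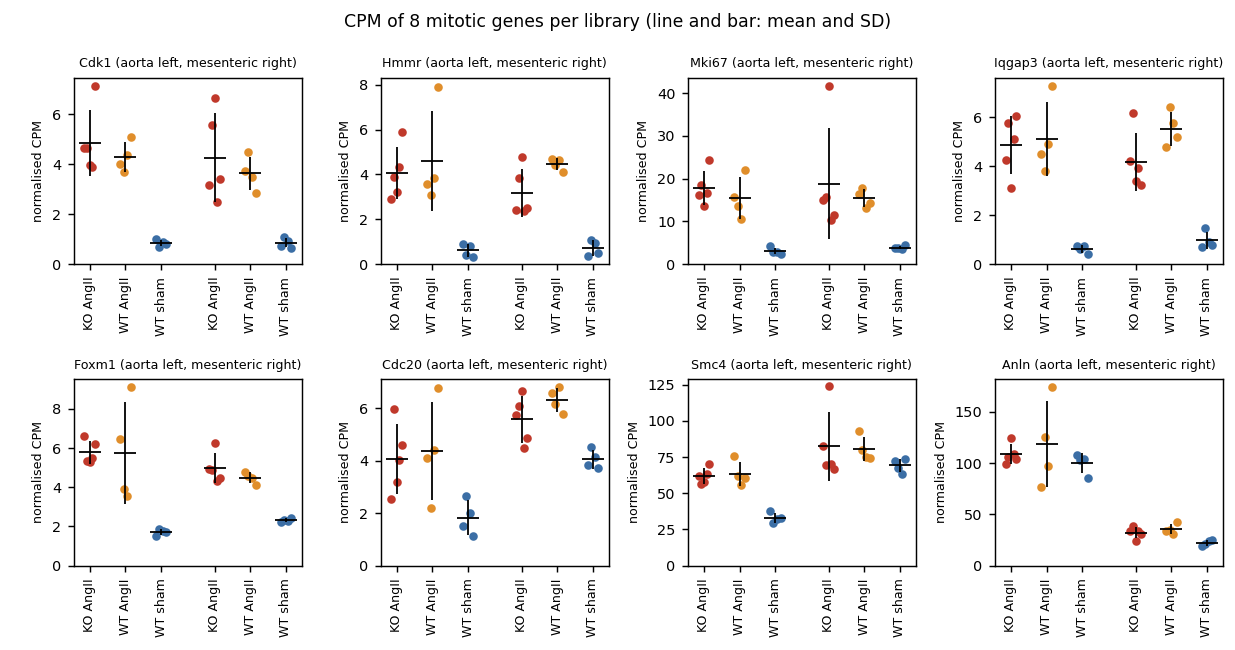
CPM of 8 genes, Cdk1, Hmmr, Mki67, Iqgap3, Foxm1, Cdc20, Smc4 and Anln, in every library of the 6 groups (points), with group means and SDs (bars). Cdk1, Hmmr, Mki67, Iqgap3 and Foxm1 separate both AngII groups from WT sham in each vessel, aortic Cdc20 overlaps between groups, mesenteric Smc4 reaches 124 CPM in KO AngII 3, and aortic Anln overlaps between groups.

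Of the 7 genes for the central spindle and cytokinesis, 6 rose in WT AngII aortas and 3, Prc1, Kif20a and Iqgap3, in WT AngII mesenteric arteries. Iqgap3 (ENSMUSG00000028068), a scaffold protein of proliferating cells, was at 4.21, 6.18, 3.41, 3.9 and 3.22 CPM in KO AngII, 4.79, 6.39, 5.74 and 5.17 CPM in WT AngII and 0.708, 1.49, 0.897 and 0.776 CPM in WT sham mesenteric libraries. Aortic Iqgap3 was at 4.24, 5.75, 3.11, 5.12 and 6.03 CPM in KO AngII, 4.51, 3.79, 4.88 and 7.25 CPM in WT AngII and 0.728, 0.626, 0.722 and 0.393 CPM in WT sham. The groups were separated in both vessels, and Iqgap3 had the largest aortic change of the 48, 3.03 ± 0.28 (edgeR adjusted p = 6.57e-06), beside 2.51 ± 0.28 in mesenteric arteries (edgeR adjusted p = 0.0047).

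Prc1 (ENSMUSG00000038943), which bundles the antiparallel microtubules of the central spindle, was at 8.43, 11.6, 9.2, 7.19 and 6.79 CPM in KO AngII, 9.74, 9.23, 10.5 and 9.04 CPM in WT AngII and 2.8, 3.2, 1.89 and 2.91 CPM in WT sham mesenteric libraries. In aortas Prc1 was at 8.13, 10.1, 7.54, 9.42 and 13.9 CPM in KO AngII, 8.58, 6.25, 7.48 and 16.4 CPM in WT AngII and 1.89, 1.66, 2.38 and 1.36 CPM in WT sham. No AngII library overlapped the sham libraries, and the changes in WT AngII were 1.83 ± 0.20 in mesenteric arteries (edgeR adjusted p = 0.0047) and 2.40 ± 0.30 in aortas (edgeR adjusted p = 9.34e-05). The mesenteric calls of Prc1 and Iqgap3 held at an adjusted p of at most 0.0356 with any library left out. Kif20a, the kinesin that carries passenger proteins to the midzone, rose by 1.96 in mesenteric arteries and 2.15 in aortas. Racgap1, the GTPase-activating subunit of centralspindlin, was at 8.21, 7.08, 6.41, 8.44 and 8.52 CPM in KO AngII, 7.7, 7.06, 7.45 and 11.5 CPM in WT AngII and 2.07, 1.44, 2.27 and 1.75 CPM in WT sham aortas, without overlap between AngII and sham. Racgap1, Kif23 and Ect2, which form the centralspindlin complex and its RhoA activator, rose by 2.16, 1.94 and 1.81 in WT AngII aortas, Racgap1 with the smallest adjusted p of the 48 (edgeR adjusted p = 5.39e-06). Their mesenteric estimates of 1.07, 1.26 and 1.15 did not pass the test (edgeR adjusted p = 0.174, 0.237 and 0.181).

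Anln, the actin-binding anillin of the contractile ring, did not follow the rest of its role in aortas. Its aortic values were 99.2, 106, 125, 109 and 104 CPM in KO AngII, 77, 126, 96.9 and 174 CPM in WT AngII and 108, 103, 104 and 85.8 CPM in WT sham. The groups overlapped, and the change was 0.24 ± 0.19 in WT AngII (edgeR adjusted p = 0.396) and 0.12 ± 0.18 in KO AngII (edgeR adjusted p = 0.664), both over WT sham. WT AngII 4, at 174 CPM, carried the positive WT estimate, which was -0.011 without that library. Mesenteric Anln was at 33.8, 38.2, 24.2, 33.8 and 30.5 CPM in KO AngII, 33.5, 34.4, 31.1 and 42.2 CPM in WT AngII and 18.7, 21.4, 23.7 and 24.6 CPM in WT sham, with WT AngII above sham in every library and a change of 0.68 ± 0.14 (edgeR adjusted p = 0.0995).

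The 6 chromosome structure genes all rose in WT AngII aortas, and Top2a was the only one of them called in WT AngII mesenteric arteries. Top2a (ENSMUSG00000020914), the topoisomerase that untangles sister chromatids, was at 14.5, 18.6, 28.2, 8.76 and 9.33 CPM in KO AngII, 17.1, 17.6, 12.7 and 11.9 CPM in WT AngII and 3.83, 3.35, 4.58 and 3.65 CPM in WT sham mesenteric libraries. Aortic libraries held Top2a at 15.8, 16.7, 12.2, 15.8 and 22.3 CPM in KO AngII, 15.5, 13.9, 11.6 and 22.5 CPM in WT AngII and 3, 1.69, 3 and 2.04 CPM in WT sham. AngII and sham groups did not overlap, and the changes in WT AngII were 1.94 ± 0.33 in mesenteric arteries (edgeR adjusted p = 0.0406) and 2.70 ± 0.25 in aortas (edgeR adjusted p = 8.69e-06). Mki67 (ENSMUSG00000031004), the Ki-67 antigen that coats mitotic chromosomes and is widely used as a proliferation marker, was at 15, 15.6, 41.6, 10.3 and 11.6 CPM in KO AngII, 16.5, 17.7, 13.2 and 14.2 CPM in WT AngII and 3.72, 3.69, 3.49 and 4.42 CPM in WT sham mesenteric libraries. Aortic Mki67 was at 16.1, 18.4, 13.5, 16.7 and 24.3 CPM in KO AngII, 15.7, 13.5, 10.6 and 22.1 CPM in WT AngII and 4.14, 2.73, 2.74 and 2.43 CPM in WT sham. Its groups were separated as well, and the mesenteric change of 2.00 ± 0.38 in WT AngII missed the threshold (edgeR adjusted p = 0.0674) although the aortic change of 2.35 ± 0.25 passed it (edgeR adjusted p = 2.84e-05). Without KO AngII 3, which had 41.6 CPM, the mesenteric adjusted p of Mki67 in the WT AngII comparison was 0.000286.

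Smc4 and Smc2 had the smallest estimates of these 6 genes in both vessels. Smc4 (ENSMUSG00000034349), a core ATPase of both condensins, was at 82.6, 69.3, 124, 70.3 and 66.7 CPM in KO AngII, 92.8, 80.2, 75.3 and 74.4 CPM in WT AngII and 72.1, 67.6, 63.5 and 73.7 CPM in WT sham mesenteric libraries. In aortas Smc4 was at 61.9, 56.7, 57.5, 63.3 and 70.4 CPM in KO AngII, 75.5, 61.8, 55.7 and 60.7 CPM in WT AngII and 37.8, 29.2, 32.3 and 33 CPM in WT sham. The aortic groups were separated, with a rise of 0.94 ± 0.10 in WT AngII (edgeR adjusted p = 2.39e-05), while the mesenteric change was 0.22 ± 0.17 (edgeR adjusted p = 0.666). Smc2, its partner, rose by 0.65 in WT AngII aortas and had a mesenteric estimate of 0.36 (edgeR adjusted p = 0.442). Ncapg and Ncaph, subunits of condensin I, rose by 2.65 and 1.67 in WT AngII aortas and had mesenteric estimates of 1.84 (edgeR adjusted p = 0.119) and 0.59 (edgeR adjusted p = 0.442).

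No mitotic gene was called between the Sphk1-deleted and the Sphk1-intact vessels under AngII. KO AngII aortas, set against WT AngII aortas, had 0 higher and 0 lower calls among the 48, whereas 0% of all aortic genes were called higher and 0.00593% lower. DESeq2 and limma voom also called 0 members. An unadjusted p below 0.05 was found for 0 members, against 3.61% of all aortic genes. The aortic estimates were positive for 27 genes and negative for 21, with a median of 0.039 and a range of -0.18 for Hmmr to 0.35 for Bub1. The 95% interval of the difference stayed within 2-fold in either direction for 46 of the 48 genes, against 83% of all aortic genes, and the exceptions were Bub1 (-0.36 to 1.06) and Ncapg (-0.60 to 1.11). Cdk1 averaged 4.87 ± 1.32 CPM in KO AngII aortas and 4.3 ± 0.601 CPM in WT AngII aortas (SD, n = 5 and 4), a difference of 0.18 ± 0.19 with an interval of -0.22 to 0.57. Mki67 averaged 17.8 ± 4.05 CPM in KO AngII aortas and 15.5 ± 4.92 CPM in WT AngII aortas, an interval of -0.26 to 0.66.

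KO AngII mesenteric arteries, set against WT AngII mesenteric arteries, also had 0 higher and 0 lower calls among the 48, whereas 0% of all mesenteric genes were called higher and 0.00571% lower. DESeq2 and limma voom called 0 members. Without the 4 libraries of high unaligned share, 0 members were called, whereas 56 of all genes were called higher, against 0 with all libraries. Only KO AngII 1 and 5 and WT AngII 2, 3 and 4 were left of these groups in that fit. The lymphocyte marker sums of KO AngII 1 and 5 lay above every WT sham library, and those of WT AngII 2, 3 and 4 did not. The median estimate was 0.021 and the range -0.58 for Pbk to 0.49 for Aurkb. Pbk was the single gene with an unadjusted p below 0.05, against 4.98% of all mesenteric genes. It averaged 2.69 ± 0.749 CPM in KO AngII mesenteric arteries and 4.02 ± 0.525 CPM in WT AngII mesenteric arteries (SD, n = 5 and 4), a difference of -0.58 ± 0.25 that missed the threshold after adjustment (edgeR adjusted p = 0.798). Hmmr and Iqgap3 had estimates of -0.49 ± 0.31 and -0.40 ± 0.24 with intervals of -1.16 to 0.18 and -0.93 to 0.13. The interval stayed within 2-fold for 39 of the 48 genes, against 76.1% of all mesenteric genes, and the other 9 were Pbk, Aurkb, Cdca8, Bub1b, Ttk, Knl1, Kif15, Hmmr and Mki67. For these 9 a difference above 2-fold lies inside the interval.

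**Figure D4:**
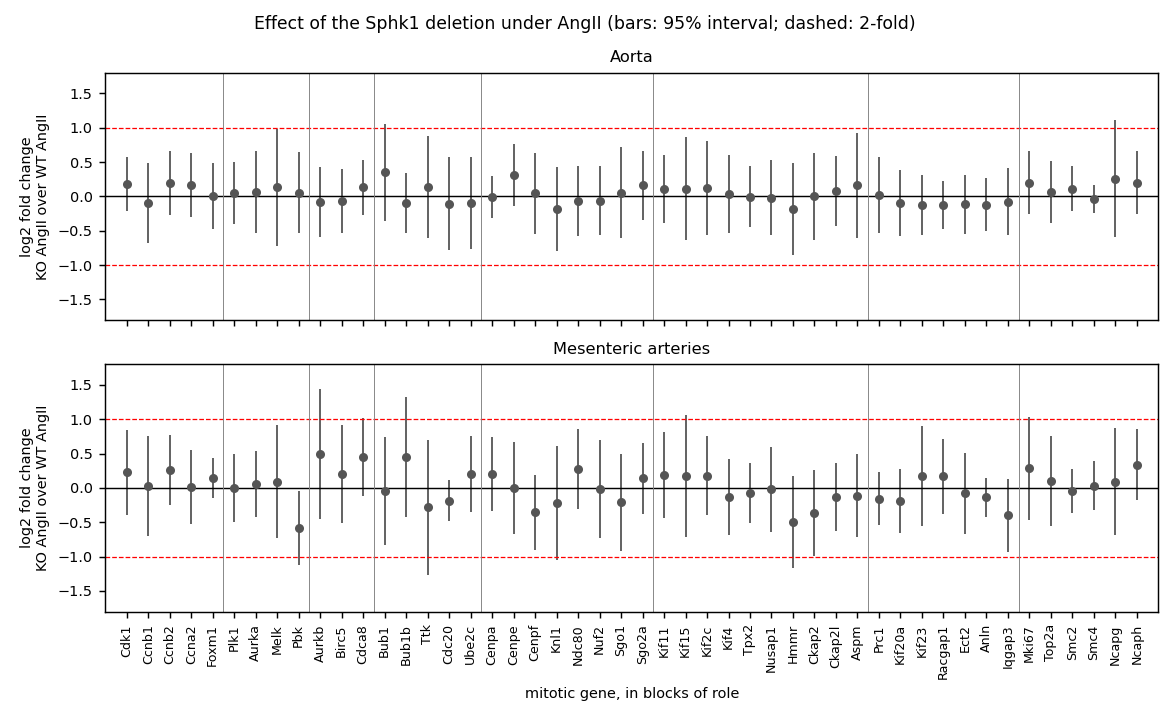
Log2 fold change of KO AngII over WT AngII for each of the 48 genes with its 95% interval, in aortas (top) and mesenteric arteries (bottom); dashed lines mark a 2-fold difference in each direction. The intervals of 46 aortic and 39 mesenteric genes lie between the dashed lines, and none of the 48 is called.

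Mesenteric KO AngII 3 stood above the other mesenteric libraries. It was the highest of the 13 mesenteric libraries for 39 of the 48 genes, and its mean log2 CPM over the 48 was 2.67, against 1.57 to 2.23 in the other KO AngII libraries, 1.95 to 2.19 in WT AngII libraries and 0.477 to 0.596 in WT sham libraries. KO AngII 4, at 1.57, was the lowest of its group for 30 of the 48. Bub1b in KO AngII over WT AngII was 0.46 with all libraries and -0.12 without KO AngII 3. In the aorta, WT AngII 4 was the highest of its group for 46 of the 48 genes and KO AngII 5 for 35, with means of 2.63 and 2.53.

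Most AngII estimates were smaller in mesenteric arteries than in aortas, and edgeR called the difference for 0 of the 48. In separate fits 45 of 48 mesenteric estimates lay below the aortic one. In a fit over all 26 libraries, the mesenteric minus aortic difference of the WT AngII effect was negative for 45 of 48 genes, with a median of -0.48 and a range of -1.54 to 0.51. Of the 48, 0 were called higher and 0 lower, whereas 0.68% of all 18520 genes were called higher and 1.66% lower. The interval of this AngII difference stayed within 2-fold for 8 of the 48, against 56% of all genes. Bounds among the 48 ran from -2.40 to 1.41. For the other members a difference above 2-fold lies inside the interval, so the absence of calls does not show equal effects in the vessels. An unadjusted p below 0.05 was found for 6 of the 48, against 15.2% of all genes, so the share among the 48 was no higher than over all genes. These were Ndc80 (-1.54 ± 0.42, edgeR adjusted p = 0.0516), Smc4 (-0.73 ± 0.20, 0.0537), Cenpa (-1.04 ± 0.30, 0.0666), Racgap1 (-1.10 ± 0.33, 0.0767), Ncaph (-1.10 ± 0.35, 0.103) and Foxm1 (-0.81 ± 0.29, 0.164). The choice of tool moved this result: DESeq2 called 4 of the 48 lower and limma voom 5, among them Ndc80, Smc4 and Cenpa in both. With 1 library left out edgeR called 4 without mesenteric KO AngII 3, 3 without mesenteric KO AngII 4, and 1 each without aortic WT sham 1, aortic KO AngII 5, mesenteric WT AngII 1 or mesenteric KO AngII 5. The mesenteric minus aortic difference of the genotype effect under AngII was not called for any of the 48 by edgeR (0% of all genes called, median -0.017). An unadjusted p below 0.05 was found for 0 of the 48, against 4.04% of all genes, and DESeq2 and limma voom called 0. Of the 48 intervals of that genotype difference, 27 lay within 2-fold, against 62.7% of all genes.

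Smc4, Cenpa and Ndc80, which had the smallest p in that difference, stood higher in mesenteric than in aortic sham vessels; both results use the same sham libraries. Of the 48, 9 were called higher and 2 lower in WT sham mesenteric arteries than in WT sham aortas, whereas 20.7% of all genes were called higher and 17.7% lower, so neither share exceeded that of all genes. Smc4 averaged 66.8 ± 4.82 CPM in mesenteric and 34.0 ± 3.54 CPM in aortic sham libraries (SD, n = 4 each), a log2 difference of 0.97 ± 0.14 (edgeR adjusted p = 7.43e-06). Cenpa averaged 6.78 ± 0.502 CPM in mesenteric and 2.60 ± 0.448 CPM in aortic sham libraries, a difference of 1.38 ± 0.22 (edgeR adjusted p = 1.8e-05). Ndc80 averaged 0.650 ± 0.0561 CPM in mesenteric and 0.274 ± 0.119 CPM in aortic sham libraries, a difference of 1.22 ± 0.31. Ncaph, Cdc20, Cenpf, Racgap1, Aurka and Smc2 were the other genes higher in mesenteric sham vessels, by 1.15, 1.06, 0.91, 0.87, 0.78 and 0.62. Anln was lower in mesenteric sham vessels, with 21.3 ± 2.53 CPM in mesenteric and 103 ± 9.48 CPM in aortic sham libraries, a difference of -2.28 ± 0.19 (edgeR adjusted p = 8.6e-10). Sgo2a was lower in mesenteric sham vessels too (-1.19 ± 0.26), with 1.04 ± 0.315 CPM in mesenteric and 2.37 ± 0.476 CPM in aortic sham libraries.

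Lymphoid RNA varied widely between mesenteric libraries, and the AngII difference of the mitotic genes was present in libraries with little of it. The mean log2 CPM of 18 B and T lymphocyte markers was 2.69, 0.707, 5.51, -0.0499 and 2.56 in KO AngII, 3.5, 0.371, -0.408 and -0.209 in WT AngII and 0.612, -0.28, -0.117 and 0.331 in WT sham mesenteric libraries. The markers summed to 19.2 to 1079 CPM in KO AngII, 14.3 to 262 CPM in WT AngII and 16.8 to 29.3 CPM in WT sham, and none of the 18 was at 0 in any of the 13. In KO AngII over WT sham, all 18 markers had positive estimates, with a median of 3.67. Of these, 18 had an unadjusted p below 0.05, against 19.1% of all genes, and edgeR called 0. In WT AngII over WT sham, all 18 were positive with a median of 1.67, and 0 had an unadjusted p below 0.05. WT AngII 2, 3 and 4 had lymphocyte sums of 24.1, 14.3 and 16.1 CPM, within or below the range of the sham libraries. In those 3 libraries Cdk1 was at 4.48, 3.51 and 2.85 CPM and Hmmr at 4.44, 4.66 and 4.1 CPM, above every sham library, which reached at most 1.07 CPM for either gene. The mean log2 CPM of the 48 mitotic genes in them was 2.18, 1.96 and 1.95, against at most 0.596 in WT sham. Whether lymphoid cells hold the mitotic RNA was not tested.

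**Figure D5:**
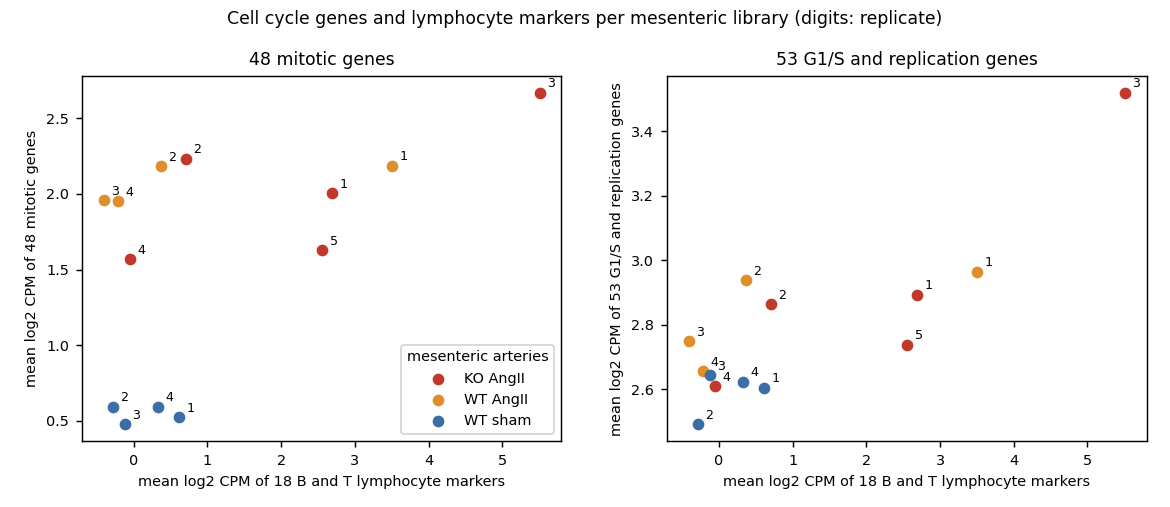
Mean log2 CPM of the 18 lymphocyte markers (x axis) against the mean log2 CPM of the 48 mitotic genes (left) and of 53 G1/S and replication genes (right) in the 13 mesenteric libraries, coloured by group. The 4 sham libraries lie between 0.477 and 0.596 on the mitotic axis, below all 9 AngII libraries, which lie between 1.57 and 2.67 at marker means of -0.408 to 5.51.

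A slope on the lymphocyte marker mean was added to the mesenteric fit beside the group terms. Of the 48 genes, 6 had a positive slope past the threshold and 0 a negative one, whereas 8.19% of all genes had a positive and 3.08% a negative one, a share close to that among the 48. They were Smc4 (0.13 ± 0.02 log2 units per unit of the marker mean, edgeR adjusted p = 0.00503), Bub1b (0.29 ± 0.06, 0.0059), Kif23 (0.26 ± 0.05, 0.00757), Mki67 (0.24 ± 0.06, 0.0213), Kif15 (0.27 ± 0.07, 0.0318) and Ndc80 (0.18 ± 0.05, 0.0479). The slope was positive for 44 of the 48 with a median of 0.11, and negative for Iqgap3 (-0.10), Anln (-0.076), Ckap2 (-0.041) and Pbk (-0.034). The slope rests on few libraries: without KO AngII 3, and likewise without both KO AngII 3 and WT AngII 1, 0 of the 48 passed, without KO AngII 2 11 passed, and without KO AngII 4 3 passed.

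The mesenteric AngII calls were recounted with the lymphocyte slope in the fit. Of the 48, 26 then rose in WT AngII over WT sham, beside 21 without the slope, and 18 rose in KO AngII over WT sham, beside 28. Without KO AngII 3 and WT AngII 1, 24 rose in WT AngII and 29 in KO AngII. That fit kept KO AngII 1 and 5, whose lymphocyte marker sums also lay above every WT sham library. Estimates that turned negative with the slope in the fit were those of Cenpa (-0.026) and Smc4 (-0.048) in KO AngII over WT sham, neither of which was called before. The mean log2 CPM of 12 macrophage and monocyte markers was 3.92 to 6.65 in KO AngII, 3.85 to 5.19 in WT AngII and 3.3 to 4.27 in WT sham mesenteric libraries. Of the markers, 0 of 12 passed the edgeR test in either comparison with sham, with an unadjusted p below 0.05 for 11 in KO AngII and 0 in WT AngII, and their part in the mitotic values was not tested. In mesenteric WT AngII over WT sham, estimates were positive for 11 of 12 gut epithelium and pancreas markers and 6 of 6 mesothelial markers; edgeR called 0 of either list, with an unadjusted p below 0.05 for 3 and 1. Mesothelial markers summed to 7.22 to 149.4 CPM in KO AngII, 2.78 to 137.5 CPM in WT AngII and 3.39 to 38.2 CPM in WT sham. The part of gut, pancreatic and mesothelial RNA in the mitotic values was not tested.

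Macrophage and fibroblast markers rose beside the mitotic genes in the aorta. In WT AngII over WT sham aortas, 12 of 12 macrophage and monocyte markers rose, 4 of 8 fibroblast markers rose (Dpt, Lum, Dcn and Col1a1), 2 of 8 smooth muscle markers fell and 1 of 14 tested lymphocyte markers, Ccr7, rose. Of 6 tested genes listed as germinal centre and plasma cell markers 3 rose (Bcl6, S1pr2 and Sdc1). Of 4 tested erythroid markers 3 fell (Hbb-bs, Hbb-bt and Alas2). Of all aortic genes 14.7% rose and 10.8% fell in that comparison. In KO AngII over WT sham aortas, 4 of the 6 rose with Jchain added and 1, Mef2b, fell, and 4 of the 4 erythroid markers fell. The germinal centre and plasma cell list summed to 318 to 418 CPM in WT AngII and 230 to 315 CPM in WT sham aortas, far above the lymphocyte sums below. Which cells express these genes was not tested. Macrophage markers summed to 1016 to 1198 CPM in KO AngII, 791 to 1082 CPM in WT AngII and 584 to 716 CPM in WT sham aortas. Lymphocyte markers summed to 4.82 to 12.7 CPM in KO AngII, 4.19 to 14.7 CPM in WT AngII and 2.62 to 9.21 CPM in WT sham aortas, with at most 1 of the 18 at 0 in a KO AngII or WT AngII library and at most 4 in a WT sham library. The part of these cell types in the aortic mitotic values was not tested.

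Other cell cycle lists had lower medians than the mitotic one in the aorta. The members and these lists were chosen with earlier results of these data known. The order of the medians therefore describes the lists and is not independent evidence. In WT AngII over WT sham aortas, 41 of 60 other mitotic genes rose and 1 fell, with a median of 1.36, among them Psrc1 (2.34 ± 0.22, edgeR adjusted p = 7.47e-06), a spindle-associated protein, Cdc25c (4.61), a phosphatase that activates Cdk1, Kif22 (2.57), a chromosome-binding kinesin, and Spag5 (2.42), a spindle protein. Of 52 tested genes of G1/S and DNA replication, 19 rose and 2 fell, with a median of 0.30. Rrm2, the regulated subunit of ribonucleotide reductase, rose by 1.47, Ccne1 by 2.10, Uhrf1 by 1.66 and Pole by 1.51. Of 21 tested regulators of cell cycle transcription, 8 rose and 1 fell, with rises of 1.20 for E2f1, 0.73 for E2f3, 2.40 for E2f8 and 1.46 for Myc. Of 7 tested CDK inhibitors 4 rose, Cdkn2b by 0.99, Cdkn2c by 0.77, Cdkn3 by 1.63 and Cdkn1a. Cdkn1a, which encodes p21, was at 100.3 ± 6.84 CPM in WT AngII and 40.1 ± 5.06 CPM in WT sham aortas (SD, n = 4 each), a rise of 1.32 ± 0.09 (edgeR adjusted p = 2.08e-06).

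Mesenteric counts for the same lists were smaller than the aortic ones. Of all mesenteric genes, edgeR called 0.183% higher in WT AngII and 0.457% higher in KO AngII, both over WT sham. An unadjusted p below 0.05 was found for 10.6% and 19.1% of all mesenteric genes. The list counts are from edgeR alone, which called fewer genes higher than DESeq2 or limma voom in both comparisons. In WT AngII over WT sham mesenteric arteries, 4 of 60 other mitotic genes rose, Cep55 by 2.00, Nek2 by 2.03, Spc25 by 1.58 and Spag5 by 1.94, with a list median of 0.90. None of the 52 tested G1/S and replication genes passed the edgeR test, and their median was 0.089, although 11 had an unadjusted p below 0.05. Clspn, a replication checkpoint adaptor, had an estimate of 1.64 ± 0.36 (edgeR adjusted p = 0.125) and Ccne2, cyclin E2, 0.74 (edgeR adjusted p = 0.209). None of 21 regulators and 8 CDK inhibitors passed the edgeR test, 4 and 3 having an unadjusted p below 0.05; E2f3 had an estimate of 0.43, Cdkn3 of 1.69 and Cdkn1c of -0.50. In KO AngII over WT sham, 12 of 60 other mitotic genes rose, among them Psrc1 by 2.10 and Cep55 by 1.97, beside 0 of 52 G1/S genes (16 with an unadjusted p below 0.05) and 1 of 8 CDK inhibitors. That inhibitor was Cdkn1a, at 107.8 ± 24.1 CPM in KO AngII and 48.1 ± 7.10 CPM in WT sham mesenteric arteries (SD, n = 5 and 4), a rise of 1.17 ± 0.17 (edgeR adjusted p = 0.0109). The mesenteric minus aortic difference of the WT AngII effect passed the test for Cit (-2.32 ± 0.42, edgeR adjusted p = 0.00356), which encodes citron kinase of the midbody, Psrc1 (-1.30, 0.0457), Myc (-1.29, 0.0297), Cdkn1a (-0.87, 0.0248) and Cdkn2c (-0.95, 0.0267). Along the lymphocyte marker mean, 15 of 52 G1/S genes, 9 of 60 other mitotic genes and 7 of 12 macrophage markers had a positive slope past the threshold. This stands beside the 6 of 48 mitotic genes above and 8.19% of all genes. Mcm5 (0.26), Mcm3 (0.18) and Tk1 (0.30) were among the G1/S genes. Without KO AngII 3 and WT AngII 1, 41 of all genes had such a slope, against 1434 with all libraries. The lists were not recounted in that fit.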

How the data were processed

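The authors deposited raw read counts per gene for 26 libraries, prepared with a directional mRNA kit and sequenced in pairs, per the labels' protocols. The submitters' processing notes name cutadapt, HISAT2, HTSeq and build GRCm39; how strand was counted is not given in the sources used. The 5 summary lines of each count table, which name no gene, were left out of library sizes; reads without a feature made up 6.64% to 11.1% and unaligned reads 0.572% to 14.7% of all records. Symbols came from a RefSeq gene table (52083 of 55416 identifiers). Each vessel was fitted apart, 3 groups together, with edgeR 4.0.16 in R 4.3.3 (filterByExpr, TMM, robust quasi-likelihood F test, Benjamini-Hochberg over all genes, threshold 0.05); differences between vessels came from 1 fit of all 26 libraries. CPM are TMM-normalised. The standard error is the log2 change divided by the root of F, and intervals are 95%. The script was tested on simulated data. Values per library are given for 18 genes fixed by name, for the gene with the smallest adjusted p in a comparison, and for a few chosen after their values were seen (Ube2c, Cenpa, Sgo2a, Anln). DESeq2 1.42.0, limma 3.58.1, other scalings and filters, and leaving out libraries were alternatives. The members and lists were chosen with earlier results of these data known. Lin54 was not analysed here.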

Additional observations from a re-analysis of the deposited data

Results flagged for a closer look

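In 114 groups of 4 or 5 libraries, 8 held a library far from the others by Dixon's criterion, where chance gives about 1 in 20. In KO AngII aortas, replicate 5 was high for Cdk1 (7.14 CPM, next 4.67) and Cenpf (6.64 CPM, next 3.88), and replicate 3 was low for Plk1 (2.14 CPM, next 3.59). In WT AngII aortas, replicate 4 was high for Hmmr (7.92 CPM, next 3.83). Replicate 3 of the KO AngII mesenteric arteries was high for Bub1b (18 CPM, next 5.63), Mki67 (41.6 CPM, next 15.6) and Smc4 (124 CPM, next 82.6). In WT AngII mesenteric arteries, replicate 3 was low for Birc5 (1.63 CPM, next 2.45).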

How the results depend on the processing

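Calls in the aorta changed little: 45 to 46 members rose in WT AngII and 45 to 47 in KO AngII over WT sham under the alternatives run, 46 to 46 and 45 to 47 with 1 library left out. Mesenteric calls did change. In WT AngII over WT sham, 21 became 40 with DESeq2, 41 with limma voom, 10 with library size alone and 7 with the replicate block. The count was 30 with only the 2 groups compared and 6 to 36 with 1 library left out. In KO AngII over WT sham, 28 became 44 with DESeq2, 5 with only the 2 groups compared, 10 with the replicate block and 18 with the lymphocyte covariate, and 12 to 31 with 1 library left out. The mesenteric minus aortic AngII difference was called lower for 4 with DESeq2, 5 with limma voom and 0 to 4 with 1 library left out. The lymphocyte slope was called for 0 without the 2 libraries that stand apart, 3 with the replicate block and 0 to 11 with 1 library left out. In sham vessels, 7 to 9 were higher and 2 to 2 lower in mesenteric arteries. Every other count of members was 0 to 0 with 1 library left out.

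Same-numbered libraries had correlations of -0.289 to 0.102 in aortas, -0.265 to 0.343 in mesenteric arteries and -0.118 to 0.133 across vessels. Differently numbered libraries were not correlated for comparison, so these values cannot show whether the numbers pair the libraries. Single-gene signs were followed for all 48 genes against sham within each vessel, but elsewhere for few: 4 in each genotype comparison and in its difference between vessels, 3 in the AngII difference, 11 between sham vessels and 6 for the lymphocyte slope. Those that changed sign were Anln in WT AngII aortas (-0.011 to 0.39 with 1 library left out, lowest without WT AngII 4), Hmmr in KO AngII over WT AngII aortas (0.14 with limma voom, -0.36 to 0.21 with 1 library left out), mesenteric Bub1b (-0.12 to 0.68 with 1 library left out, lowest without KO AngII 3, and -0.12 with the lymphocyte covariate) and Aurkb (-0.0054 with that covariate) in KO AngII over WT AngII, Cenpa (-0.026) and Smc4 (-0.048) in mesenteric KO AngII over WT sham with that covariate, and the difference of the genotype effect for Bub1b (-0.032 to 0.74 with 1 library left out, lowest without mesenteric KO AngII 3) and Aurkb (-0.028 with limma voom). The cause was not tested. Many members have few counts in sham libraries, which limits their precision.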
